A study of Mus musculus with 2 samples.

Results

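The 10 genes described here, Adipoq, Retn, Pparg, Plin1, Plin4, Cidec, Lipe, Pnpla2, Fabp4 and Slc2a4, are genes of fat cells, and their levels were read in mouse spleen with and without silica remodelling. They were taken by symbol: every array probe whose accession matched one of them was collected, and the brightest probe of each gene was used. All 10 were found among the 20649 gene symbols that the arrays named, with 12 probes between them. The study measured 2 one-colour Agilent arrays. The first held RNA pooled from 5 spleens of female mice treated with phosphate-buffered saline (PBS), and the second RNA pooled from 5 spleens of female mice treated with silica (SiO2) and called remodelled by the labels. Both pools were collected on day 19 counted from the first injection, and strain, age and silica dose are not given in the sources used here. Both also passed through a blood RNA kit that lyses red and white cells separately and through removal of globin message. The comparison asks how the remodelled spleen differs from the control spleen.

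Fat cells, or adipocytes, store triglyceride in a large lipid droplet, take up glucose and fatty acids under the control of insulin, release fatty acids again by lipolysis, and secrete hormones called adipokines. The nuclear receptor PPARG switches on most of this programme together with the C/EBP factors. Several of these genes are not restricted to fat: Fabp4 and Pparg are also used by macrophages and endothelium, Slc2a4 by muscle, and Pnpla2 by nearly all tissues. The spleen has few adipocytes of its own, but fat tissue lies against it in the abdomen.

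There was 1 array per group, so no test and no spread between animals can be given, and the number of arrays limits the precision. Signals are Agilent's processed intensities, from which the background has been subtracted. Differences are log2 of the SiO2 signal minus log2 of the PBS signal after each array was divided by its own 75th percentile, which was 670 (669.5) for PBS and 469 for SiO2. This scaling adds 0.51 to every log2 difference relative to the unscaled signals. Errors given with a signal are those that the scanner software assigned to the spot. Among 265 probes printed as repeated spots and above background, the standard deviation (SD) of the difference was 0.059 at the median and 0.20 at the 95th percentile. For the 46 of these with a signal under 60 it was 0.13 and 0.33.

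In the SiO2 pool the insulin-regulated glucose transporter Slc2a4 was 5.47-fold higher and the fatty acid binding protein Fabp4 was 4.39-fold higher, both with strong signals. The adipokine Adipoq, or adiponectin, was 4.32-fold higher, but with a weak signal. Its PBS value was raised to the lowest signal well above background. No member was at least 2-fold lower. Thus 3 of 10 members were at least 2-fold higher, beside 6.62% of the 16774 named genes measured, and 0 of 10 were at least 2-fold lower, beside 3.69%. These shares depend on the scaling: with the B and T cell markers set to 0 they were 17.2% and 1.34%, and without scaling 2.43% and 16.0%. Adipoq was counted through the SiO2 array alone. With probes above background on both arrays only, 2 of 9 members were at least 2-fold higher, beside 6.37% of 15900 genes. The lipid droplet genes Plin1, Plin4 and Cidec lay between 0.47 and 0.56 on the log2 scale. Retn, Pparg, Pnpla2 and Lipe lay between -0.85 and -0.09. The median of the 10 was 0.51, beside 0.030 over all named genes. A pool of whole organs cannot tell a change in the number of cells of a type from a change in RNA per cell.

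**Figure D1:**
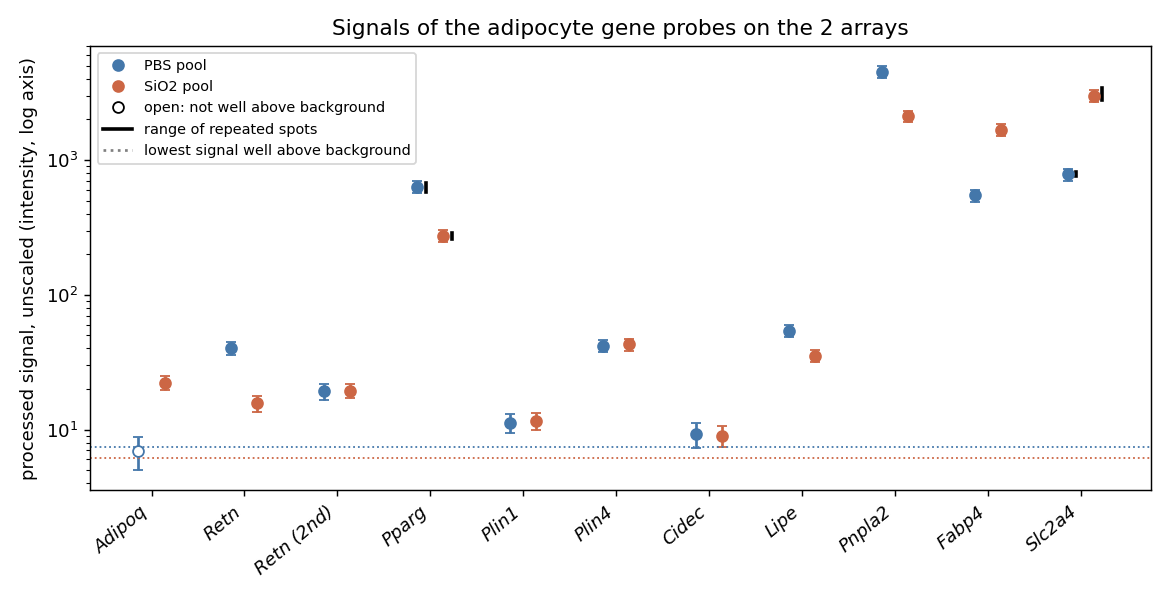
Unscaled processed signal (vertical axis, intensity, log scale) of each probe of the 10 genes that was above background on at least 1 array, in the PBS pool and the SiO2 pool. Error bars are the scanner software's error of a spot, black lines the range of repeated spots, an open circle a signal not well above background, and dotted lines the lowest signal well above background on each array. Compare the 2 pools within a gene, not different genes. The signals are not scaled, and the SiO2 array had the lower 75th percentile (469 against 669.5). Before scaling, Fabp4, Slc2a4 and the weak Adipoq are higher in the SiO2 pool, and Pparg, Pnpla2, Lipe and the brighter Retn probe lower. The signals of Plin1, Plin4, Cidec and the dimmer Retn probe overlap within their errors.

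Adipoq encodes adiponectin, a hormone made almost only by adipocytes. Its probe gave a signal of 6.88 ± 1.86 in the PBS pool, not well above background, and of 22.3 ± 2.67 in the SiO2 pool, well above it. The lowest signal well above background on the PBS array was 7.37, and that value was used for PBS. It gives 4.32-fold (2.11 on the log2 scale). This is not a strict lower bound, because the error of the PBS signal reaches past 7.37. The probe's own PBS signal would give 2.21, with an error of 0.43 from the spots. Before background subtraction the spot medians were 25.5 and 38, against local backgrounds of 12 and 11. With normexp, a model-based background correction with an offset of 50 that compresses low signals, the difference was 0.76 and no longer reached 2-fold.

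Retn encodes resistin, an adipokine of mouse fat, and its probes did not agree. The brighter probe gave 40.1 ± 4.31 in PBS and 15.6 ± 2.04 in SiO2, a log2 difference of -0.85, or 1.80-fold lower. The dimmer probe of the same transcript gave 19.2 ± 2.54 and 19.4 ± 2.37, a log2 difference of 0.53. The mean over both was -0.16, and with normexp the brighter probe gave -0.013. No direction is therefore given for Retn.

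Sequences before the RefSeq start sites of Adipoq and Retn, the 2 adipokines, and of Plin1, the coat protein of fat-storing droplets, are printed to show the control regions of genes that the PPARG and C/EBP factors regulate in fat. RefSeq's promoter table (build GRCm38.p6) held 12 windows for 8 of the 10 members, and held no entry for Fabp4 and Slc2a4. The 250 bases before each start were searched on both strands for TTNNGNAA, a loose form of the C/EBP site, and for AGGTCA repeated after a gap of 1 base, the element that PPARG binds with its partner RXR. Capitals mark a match to TTNNGNAA or to its reverse complement, and these can coincide.
Adipoq, chr16:23146286-23146535, plus strand: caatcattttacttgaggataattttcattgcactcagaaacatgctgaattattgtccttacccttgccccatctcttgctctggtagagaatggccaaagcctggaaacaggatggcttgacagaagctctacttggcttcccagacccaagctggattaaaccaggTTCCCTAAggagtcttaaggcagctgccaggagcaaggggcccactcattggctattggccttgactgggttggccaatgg
Retn, chr8:3655520-3655769, plus strand: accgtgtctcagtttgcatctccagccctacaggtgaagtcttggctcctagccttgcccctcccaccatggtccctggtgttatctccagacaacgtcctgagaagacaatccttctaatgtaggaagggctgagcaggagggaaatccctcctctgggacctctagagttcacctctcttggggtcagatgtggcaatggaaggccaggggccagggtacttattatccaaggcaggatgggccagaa
Plin1, chr7:79732777-79733026, minus strand: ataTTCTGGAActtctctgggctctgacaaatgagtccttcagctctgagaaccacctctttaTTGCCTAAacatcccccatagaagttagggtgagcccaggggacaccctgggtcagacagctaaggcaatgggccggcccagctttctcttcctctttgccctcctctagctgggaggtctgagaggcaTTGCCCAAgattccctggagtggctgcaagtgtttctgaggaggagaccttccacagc
Adipoq held 1 match, from 81 to 74 bases before its start, Plin1 held 3, and Retn held none. In all, 5 of the 12 member windows had a TTNNGNAA match, beside 36.8% of 32851 windows in the table, so the members' share was near that of other genes. The AGGTCA repeat was in 0 of the 12 and in 0.0335% of all windows. A match describes letters only, and binding was not measured.

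Pparg, the master regulator of fat cell formation, was printed as 10 spots. Its signal ranged from 579 to 678 in the PBS pool, with a mean of 633 ± 26.9 (SD over spots), and from 258 to 286 in the SiO2 pool, with a mean of 274 ± 9.42. No spot of one array came near those of the other. After scaling, the 9 spots measured on both arrays gave log2 differences from -0.79 to -0.60, and their SD was 0.056. Pparg was thus 1.62-fold lower (-0.69), more than the spot error, and 8.89% of all named genes were as low or lower. Most other adipogenic transcription factors lay on the same side. Of 17 measured on the list of these factors, Pparg among them, 14 were below 0 and 3 above. Their median was -0.51, and 0 were at least 2-fold lower, beside 3.69% of all named genes. The B and T cell and red pulp marker lists were lower too, with medians of -0.45 and -0.79. The part of those cells in the lower factor signals was not tested. The krüppel-like factor Klf5, which acts early in fat cell formation, was 2.77-fold higher, from signals of 27.8 and 53.9, or 0.88 on the log2 scale with normexp and 0.96 without scaling. Klf15, which raises Slc2a4 in fat and muscle, was at -0.97, and Cebpa, the C/EBP factor of mature adipocytes, at 0.27. The median of the adipogenic factor list stayed below 0 under all 9 alternatives, from -1.02 to -0.061.

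The lipid droplet genes of the set had weak signals, nearly equal in both pools before scaling. Plin1 encodes perilipin 1, which coats the droplet of adipocytes and guards it from lipases. Its signal was 11.3 ± 1.86 in PBS and 11.7 ± 1.72 in SiO2, an unscaled ratio of 1.03 and a scaled log2 difference of 0.56. Plin4, a perilipin of small new droplets, gave 41.8 ± 4.45 and 42.8 ± 4.47, a ratio of 1.02 and a difference of 0.55. Cidec, which fuses droplets into a single large one, gave 9.25 ± 1.98 and 9.01 ± 1.62, a ratio of 0.973 and a difference of 0.47. Its other probe was not well above background on either array. Before scaling, the signals of all 3 genes overlapped within their errors, so their scaled differences were close to the 0.51 that the scaling adds. The median of all named genes was -0.48 without scaling and 0.030 with it. After scaling, 16.8%, 17.3% and 20.7% of named genes were as high as Plin1, Plin4 and Cidec or higher. Among the 12 of 14 droplet proteins measured, these 3 were the highest and the median was 0.097. Of the 12, 0 differed 2-fold, beside 6.62% of all named genes higher and 3.69% lower. Members near that median were the seipin gene Bscl2 (0.10) and Hilpda (0.093), an inhibitor of the lipase ATGL.

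Lipolysis genes of the set were lower or alike. Pnpla2 encodes ATGL, the lipase that starts triglyceride breakdown in most tissues. Its signal was 4524 ± 452 in the PBS pool and 2111 ± 211 in the SiO2 pool, a scaled log2 difference of -0.59, with a spot error of 0.20. Lipe encodes hormone-sensitive lipase, which follows ATGL in fat. It gave 53.9 ± 5.64 and 35.4 ± 3.82, a scaled log2 difference of -0.093, well inside the spot error of 0.22. With normexp Lipe was at 0.18, so its sign depends on the background correction. Mgll, which cleaves the last fatty acid from glycerol, was 2.29-fold higher, with log2 differences between 0.99 and 1.95 among its 4 probes, or 0.68 without scaling. Hcar2, a receptor that restrains lipolysis and is also found on immune cells, was 3.92-fold lower by its brighter probe and at -0.75 by the other. In the authors' deposited values, which cover fewer probes, it was at -0.87. That is near the dimmer probe and may be its value. The carboxylesterase Ces1d was 3.58-fold lower, or -0.23 with normexp. Over the 13 lipolysis genes measured the median was -0.25, with 1 past 2-fold in the higher direction and 2 in the lower. Among all named genes 6.62% were higher and 3.69% lower.

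Fabp4, the fatty acid binding protein first known from adipocytes, gave 546 ± 54.6 in the PBS pool and 1679 ± 168 in the SiO2 pool. The unscaled ratio was 3.07, the scaled one 4.39, and the log2 difference of 2.13 had a spot error of 0.20. Only 0.733% of named genes, 123 in number, were as high or higher. Fabp4 had 1 probe, and it was above 2-fold under each of the 9 alternatives, from 1.62 without scaling to 2.58. Of 13 genes for uptake, binding and activation of fatty acids, 4 were past 2-fold in the higher and 0 in the lower direction. The list median was 0.59. Beside Fabp4 these were Acsl1 (2.26-fold), which activates fatty acids, Fabp5 (2.16-fold), the paralog of skin and macrophages, and the fatty acid transporter Slc27a1 (2.14-fold). Without scaling Acsl1, Fabp5 and Slc27a1 were at 0.66, 0.60 and 0.58 on the log2 scale, so their calls rest on the scaling.

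Slc2a4 encodes GLUT4, the transporter that insulin moves to the surface of fat and muscle cells. It was printed as 10 spots, which ranged from 760 (759.6) to 809 in the PBS pool and from 2782 to 3402 in the SiO2 pool. Means were 783 ± 15.1 and 3007 ± 166 (SD over spots), and the spots of the arrays lay far apart. The log2 differences of the 10 spots ranged from 2.33 to 2.68, with a mean of 2.45 and an SD of 0.092. Slc2a4 had the largest difference of the 10 members, and 0.340% of named genes, 57 in number, were as high or higher. Across the 9 alternatives it lay between 1.94 and 2.90. Genes that carry the insulin signal or move GLUT4 had a median near 0: of 17 measured, Slc2a4 included, 2 were past 2-fold in the higher direction, 0 in the lower, and the median was -0.13. The other was Pik3r1, the regulatory subunit of PI3-kinase, at 2.28-fold, or 0.67 on the log2 scale without scaling. Over all named genes the shares were 6.62% higher and 3.69% lower.

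**Figure D2:**
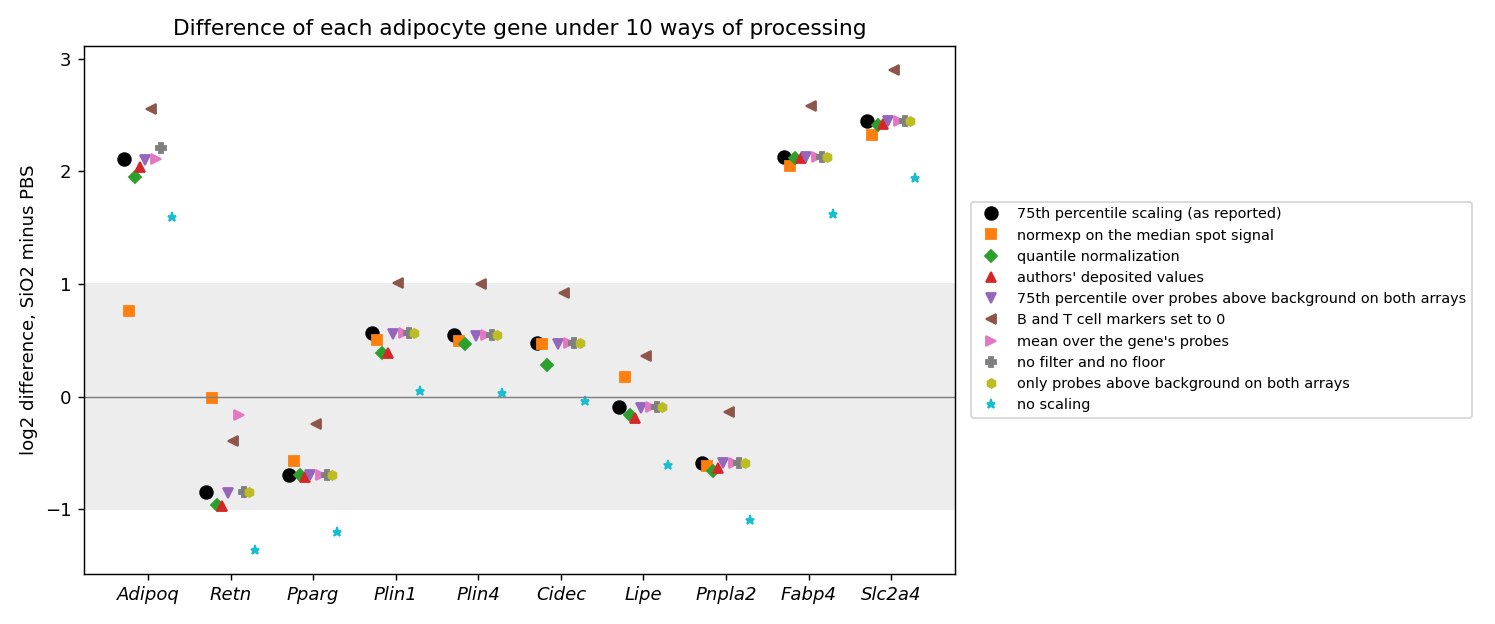
Log2 difference, SiO2 minus PBS (vertical axis), of each of the 10 genes (horizontal axis) under the reported processing (black) and 9 alternatives. The grey band marks differences under 2-fold. Slc2a4 and Fabp4 are above the band in each case, Adipoq falls into it with normexp (0.76), and Plin1, Plin4, Cidec and Lipe move to either side of 0 or close to it with the scaling.

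Weak signals tended to lie above 0 on these arrays whatever the gene. Among the 1105 named genes with both signals above background and a geometric mean under 15, the median difference was 0.25 and the 75th percentile 0.49. Between signals of 500 and 1000, where Fabp4 lay, the median of 1953 genes was -0.072 and the 90th percentile 0.74. Between 1000 and 2000, where Slc2a4 lay, the median of 1858 genes was -0.063 and the 90th percentile 0.74. Fabp4 and Slc2a4 were thus far above the 90th percentile of genes of like signal, while Plin1 and Cidec, under 15, were below the 0.76 found there. Plin4, between 30 and 60, was at 0.55 against a 90th percentile of 0.75 there. Retn, between 15 and 30, lay below the 10th percentile of -0.65 by its brighter probe.

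**Figure D3:**
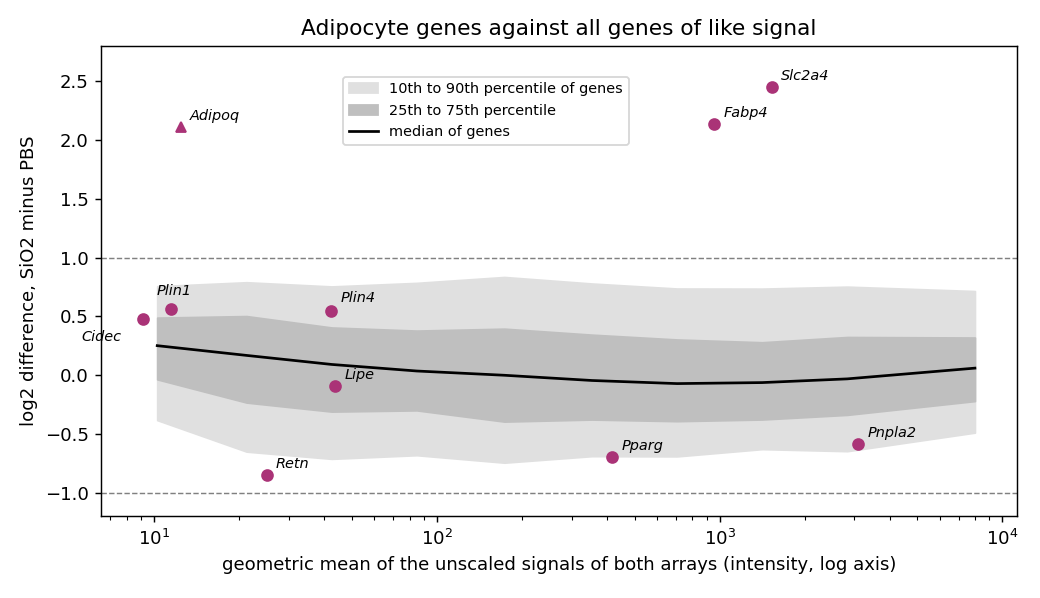
Log2 difference, SiO2 minus PBS (vertical axis), against the geometric mean of the unscaled signals of both arrays (horizontal axis, log scale). Grey bands and the black line give percentiles and the median of all named genes above background on both arrays, in 10 bins drawn at their middle. Points are the 10 genes, and the triangle marks Adipoq, whose PBS signal was raised to the lowest one well above background. Only Slc2a4, Fabp4 and Adipoq are above the dashed 2-fold line.

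Further adipocyte genes outside the 10 gave no 2-fold shift as a list. Of 21 listed, 19 were measured, 15 of them above 0 and 4 below, with a median of 0.33 (-0.18 without scaling). At 2-fold, 2 passed upward and 0 downward, beside 6.62% and 3.69% of all named genes. The higher ones were Acsl1, as above, and the acute-phase protein Orm1, at 3.04-fold from signals of 11.6 and 24.8, or 0.73 with normexp. Leptin (Lep) and the GLUT4 trafficking regulator Trarg1 were not well above background on either array. Adipsin (Cfd), a fat-secreted complement protease, was at 0.87 on the log2 scale, from weak signals of 8.31 and 10.7. Lipoprotein lipase (Lpl), which macrophages also make, was at 0.92. The summed unscaled signal of the list was 8150 (8149.9) in PBS and 8153 in SiO2. Scaling, left out of the sums here and below, would raise SiO2 relative to PBS 1.43-fold. Median signals of the list were 55.8 and 49.2. Other genes of the list had strong signals in both pools, among them the fatty acid receptor Cd36 (1919 and 2029), which macrophages also use, and the desaturase Scd1 (1434 and 1051). The 10 are called adipocyte genes for their usual source, and whether adipocytes were in either pool was not tested.

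Adipokines and their receptors had 2 of 11 measured genes past 2-fold in the higher direction and 1 in the lower, and their median was 0.19. Beside Adipoq, the adiponectin receptor Adipor1 was 2.59-fold higher, from 2423 to 4407, and without scaling at 0.86 on the log2 scale. Rbp4, a retinol carrier, was 2.37-fold lower from signals of 27.9 and 8.25, but at 0.07 with normexp. Fatty acid and triglyceride synthesis had 1 of 18 higher and 0 lower (median -0.044), the higher gene being pyruvate carboxylase, Pcx, at 3.15-fold. Brown and beige fat genes had 0 of 7 measured beyond 2-fold and a median of 0.33, with Cox7a1 and Cox8b both at 0.33. The brown fat uncoupler Ucp1, Cidea, Elovl3 and Tbx1 were not well above background in either pool. Adipocyte precursor markers had 1 of 11 higher and 0 lower (median -0.21), and that gene, Cd24a at 2.19-fold (0.62 on the log2 scale without scaling), is also an erythroid and B cell gene.

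Markers of other cells that use the same genes were read beside these values. For all marker lists the shares over all named genes are 6.62% at least 2-fold higher and 3.69% lower. Lipid-laden phagocyte genes were past 2-fold in the higher direction for 7 of 18 and in the lower for 0. Their median was 0.58, with summed unscaled signals of 82609 in PBS and 72294 in SiO2. For this and the other unscaled sums, scaling would raise SiO2 relative to PBS 1.43-fold. The highest phagocyte genes were Atp6v0d2 (49.5-fold, from a PBS signal not well above background), Gpnmb (38.5-fold), Spp1 (14.1-fold) and Mmp12 (9.20-fold). With normexp their log2 differences shrank from 5.63 to 2.72, from 5.27 to 3.88, from 3.82 to 1.89 and from 3.20 to 1.60, in the same order, and each stayed past 2-fold. These moved in the same direction as Fabp4. Endothelial markers had 0 of 13 beyond 2-fold and a median of -0.082, with Cdh5 and Cldn5 at -0.082 and -0.074. Their summed unscaled signals were 20794 and 11256. Muscle markers, of interest for Slc2a4, had 1 of 13 higher and 3 lower (median -0.14), with summed unscaled signals of 7178 and 3775. Mylpf was 2.94-fold higher from 6.29, raised to 7.37, and 15.2, or 0.65 with normexp. Tnnt2 was 3.50-fold lower, Myh1 2.81-fold lower and Tnni2 2.20-fold lower, while Actc1, Myh4 and Myot were not well above background. None of these 3 lower calls held with normexp, where Tnnt2 was at -0.81, Myh1 at -0.23 and Tnni2 at -0.96, and Tnni2 was at -0.69 with the B and T cell markers set to 0. Most of the summed muscle signal came from Eno3 (5611 and 3145), and the list median was 0.28 with normexp and 0.67 in the authors' deposited values. The part of phagocytes in the Fabp4 difference and of muscle in the Slc2a4 difference was not tested.

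Erythroid markers, higher by 2-fold or more for 11 of 11 (median 1.77), and neutrophil markers, for 7 of 11 (median 1.60), moved in the same direction as Slc2a4, Fabp4 and Adipoq. Their summed unscaled signals were 44539 and 101965 for erythroid and 56937 and 91100 (91100.4) for neutrophil markers, in PBS and SiO2. Epb42 led the erythroid list at 6.08-fold, Gata1 was at 0.62 on the log2 scale without scaling, and Ngp led the neutrophil list at 8.77-fold. Of the neutrophil markers 10 were above 0 and 1 below, the receptor Cxcr2 at -0.80. The part of erythroid cells and neutrophils in the 3 differences was not tested. Mesothelial markers, from the cells that cover spleen and abdominal fat, were lower by 2-fold or more for 8 of 10, with Msln 39.4-fold lower. The median was -3.66 with the SiO2 signals of the 4 genes not above background there raised to the lowest one well above it. With normexp the median was -1.11 and Msln was at -3.95, while Bnc1 (-0.90) and Krt18 (-0.89) no longer passed 2-fold. Pancreatic acinar markers, from a neighbouring organ, had a median of 0.39, with 0 of 7 past 2-fold upward and 1 downward. That gene, Amy2a5, not well above background in SiO2, was at -1.48, and at 0.02 with normexp.

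B and T cell markers, the check of the labelled tissue, were strong in both pools. All 15 with a measured probe were above background on both arrays, with Ms4a1 at signals of 20768 and 10660 (10659.7) and Cd79a at 196 and 96.9. Their median difference was -0.45, 0 of 15 reached 2-fold, and setting it to 0 would raise each member by that amount. Pparg would then be at -0.24, Pnpla2 at -0.14, and Plin1 would just pass 2-fold. Red pulp and stromal markers were lower by 2-fold or more for 3 of 9 and higher for 0. Their median was -0.79. They moved in the same direction as Pparg and Pnpla2, and the lower genes were Spic (-1.49 on the log2 scale), the red pulp macrophage factor, Cxcl13 (-1.26) and Cd5l (-1.22). With the B and T cell markers set to 0, Cxcl13 (-0.81) and Cd5l (-0.77) lost that call and Spic (-1.04) kept it. Their part in the lower Pparg and Pnpla2 signals was not tested.

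The sign of a list median held under all 9 alternatives for adipogenic factors, fatty acid uptake, lipid-laden phagocytes, neutrophil, erythroid, mesothelial and red pulp markers. It turned under at least 1 for adipokines, droplet proteins, lipolysis, insulin-regulated uptake, lipid synthesis, brown fat, precursor, further adipocyte, muscle, endothelial and pancreatic lists. No direction is given for those lists. Dropping the scaling lowers every difference by 0.51, and the B and T cell setting subtracts -0.45 from each. A main median between -0.45 and 0.51 therefore turns by arithmetic alone, and all the lists that turned lay in this range. Under these settings the median of all named genes was itself -0.48 and 0.48, in that order. A sign against 0 is thus not a sign against other genes.

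**Figure D4:**
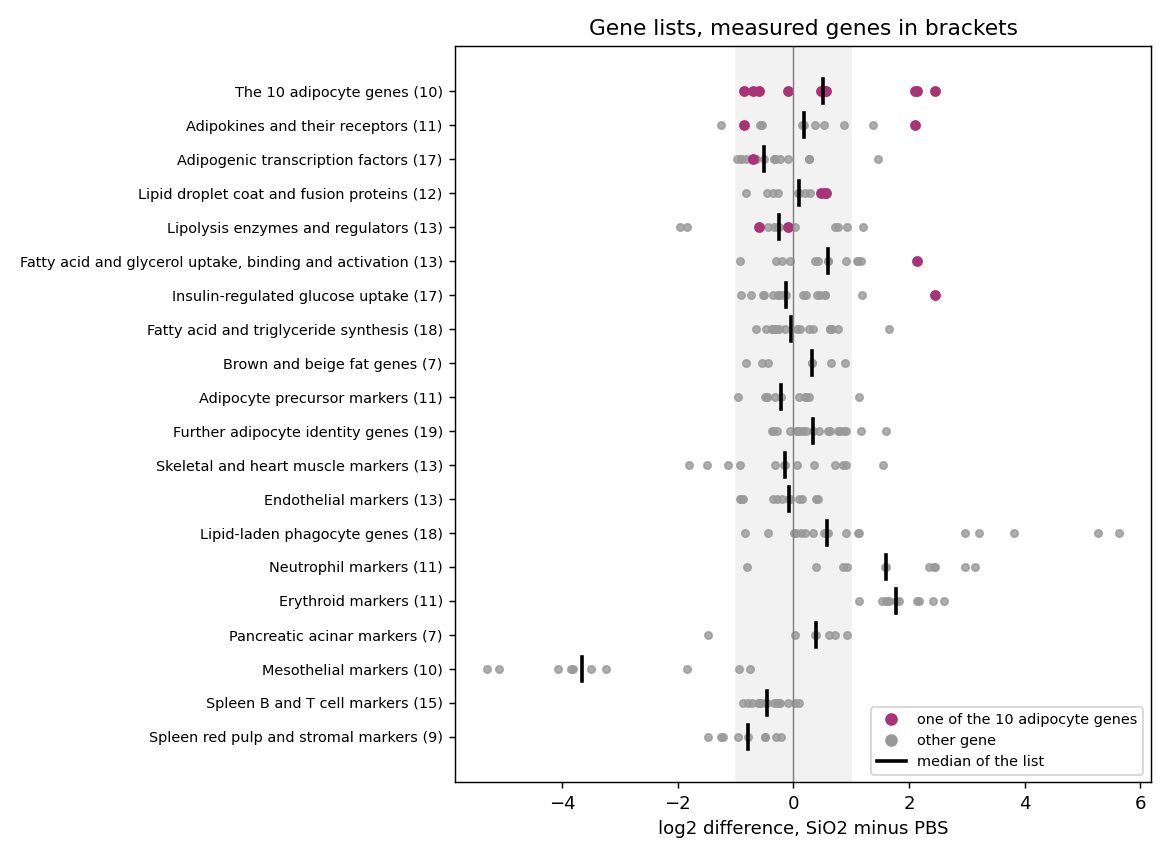
Log2 difference, SiO2 minus PBS (horizontal axis), of each measured gene in the 10 adipocyte genes and 19 further lists (rows, number measured in brackets). Coloured points are the 10 genes, grey points others and black bars list medians; the shaded band marks differences under 2-fold. The 10 genes spread from -0.85 to 2.45, and their median of 0.51 lies near those of the fatty acid uptake (0.59) and lipid-laden phagocyte (0.58) lists.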

How the data were processed

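RNA of 1 PBS and 1 SiO2 spleen pool was hybridised to Agilent one-colour (Cy3) arrays. The deposited scanner files hold intensity values, background-subtracted and made with Feature Extraction 11.0.1.1 per the file headers (the submitters' processing notes name 9.1), and both arrays come from the same scan per those headers. The authors' deposited matrix covers 26049 probes as log2 values. Each column has a median of 5.68 and correlates at 0.99997 across probes with that array's scanner values, so scale and direction are known. How its columns were centred stays unknown.

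Of 43020 spots that were not controls, 145 and 148 flagged outliers were left out, 75.5% and 74.9% were well above background, and 0 were saturated. Repeated spots were averaged on the log2 scale. Probes were named through RefSeq accessions (GRCm38.p6 table, names only): 27217 of 39398 matched 1 symbol. A gene is its brightest probe above background on an array; a dim value under the lowest signal above background was raised to it. Differences of 2-fold or more were counted. With 1 array per group the main comparison has no test. The calculation of differences was tested on simulated data. Normexp used the median spot signal, since the files analysed give no mean signal. Tools were Python 3.11.15, R 4.3.3 and limma 3.58.1.

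The members and gene lists were chosen with earlier results of these data known. Named genes are all members and, per list, up to 4 per direction beyond 2-fold, or otherwise those nearest the median. Genes given as not above background, and Klf15, Cebpa, Cfd, Lpl, Cd36, Scd1, Eno3, Gata1, Cxcr2, Bnc1 and Krt18, were picked after their values were seen.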

Additional observations from a re-analysis of the deposited data

How the results depend on the processing

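The processing was varied in 9 ways, of which no scaling was chosen after seeing the data. The count of members at least 2-fold higher stayed between 2 and 4, at 2 with normexp and with probes above background on both arrays only, and at 4 with the B and T cell markers set to 0. The count lower was 0 in each except without scaling, where it was 3 (Retn, Pparg and Pnpla2), beside 16% of all named genes. The median of the members, 0.51, became 0.096 in the authors' deposited values, which held 8 of the 10 with a usable probe, 0.96 with the B and T cell markers set to 0, and -0.0020 without scaling, while the median of all named genes was -0.039, 0.48 and -0.48 in the same order. Of the members, Cidec took the opposite sign without scaling and Lipe with normexp and with the B and T cell markers set to 0; the other 8 kept their sign. No paired analysis was possible because each group has 1 array. Signal over background limits Adipoq, Retn, Plin1 and Cidec most, and animal-to-animal spread is not measured. Counts of all named genes past 2-fold were 1110 upward and 619 downward, against 655 and 259 with normexp, 2890 and 225 with the B and T cell markers set to 0, and 407 and 2692 without scaling. The median of all genes moved from 0.030 to 0.18 with normexp.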
